A study of Mus musculus with 28 samples.

Results

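A set of 9 nuclear genes of mitochondrial and peroxisomal metabolism were followed in the cortex of mice with experimental autoimmune encephalomyelitis (EAE): Lrpprc, Pcx, Aldh2, Ogdhl, Ogdh, Immt, Lonp2, Lonp1 and Pdha1. They are 9 of the 43629 genes counted, and all 9 passed the filter on low counts. The choice rested on the data. It was built around 6 genes, Lrpprc, Pcx, Aldh2, Ogdhl, Immt and Lonp2, that passed an adjusted p of 0.05 as higher in chronic than in healthy IP. The other 3 were listed with them. That contrast is therefore given below as a description. The name "mitochondrial enzymes raised in chronic pulldown" covers the set only in part: Lonp2 belongs to the peroxisome, Lrpprc binds RNA and Immt shapes membranes, and Ogdh, Lonp1 and Pdha1 did not pass that threshold.

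All mice carried the Glt25d2 BacTRAP transgene, which tags ribosomes under the control of Glt25d2 (now Colgalt2), a gene that marks projection neurons of cortical layer 5. IP stands for the RNA recovered by immunoprecipitation of those ribosomes, and input for the cortical RNA that went into it. The 6 groups were healthy mice (5 IP and 5 input libraries), mice in acute EAE 15 days after immunisation (5 and 5) and mice in chronic EAE 30 days after it (4 and 4). EAE, a model of multiple sclerosis, was induced actively with the myelin peptide MOG35-55, and the healthy mice are labelled healthy in both treatment and phase. Age and sex are not given in the sources used here. The labels do not tie libraries to mice. The p-values therefore rest on library-to-library spread, part or all of which may be technical.

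In the mitochondrial matrix, pyruvate either loses carbon dioxide in the pyruvate dehydrogenase complex to form acetyl-CoA or gains it through pyruvate carboxylase to form oxaloacetate. Both products enter the citric acid cycle, in which the oxoglutarate dehydrogenase complex performs one of the oxidative steps. In brain, pyruvate carboxylase is best known from astrocytes, whereas neurons draw heavily on pyruvate dehydrogenase. The other members keep the organelle in order: they fold cristae, degrade damaged proteins, oxidise aldehydes and stabilise the RNAs that mitochondrial DNA encodes.

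The sequences before the gene starts of 3 members are shown because Ogdhl and Ogdh encode paralogous enzymes whose levels moved differently, and because Lrpprc had the highest fold between chronic and healthy IP. Each is the 100 bases before a RefSeq gene start on GRCm38.p6, in the direction of transcription, with every CpG in capitals.
Lrpprc, chr17:84790787-84790886, minus strand: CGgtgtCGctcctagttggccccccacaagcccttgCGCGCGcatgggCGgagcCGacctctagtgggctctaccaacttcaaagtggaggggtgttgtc
Ogdhl, chr14:32321919-32322018, plus strand: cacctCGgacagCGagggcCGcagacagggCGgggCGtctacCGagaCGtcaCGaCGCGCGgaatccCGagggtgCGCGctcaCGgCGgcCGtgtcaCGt
Ogdh, chr11:6291497-6291596, plus strand: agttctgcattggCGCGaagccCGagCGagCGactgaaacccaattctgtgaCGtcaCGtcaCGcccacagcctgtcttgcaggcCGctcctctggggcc
The Ogdhl stretch held 18 CpG at a GC content of 73%, the Ogdh stretch 9 at 63% and the Lrpprc stretch 7 at 64%. Ogdh has 6 windows, from 3 to 14 CpG and from 48% to 72% GC, and the one shown is the first that holds the cyclic AMP response element named below. Over all 32851 promoter windows of the RefSeq table the median was 3 CpG and 55% GC in the same 100 bases. Windows were found for 8 of the 9 members, all but Aldh2, and 15 windows in all, since some genes have several starts.

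Sites named for factors of mitochondrial gene control were looked for on both strands of these windows by exact letters. ERR (TCAAGGTCA, in 0.423% of all windows), GABP (CCGGAAGT, 3.89%) and YY1 (AAGATGGCG, 1.4%) had no match in a member's window. The cyclic AMP response element (CRE, TGACGTCA, 1.79%) and NRF1 (CGCATGCGC, 1.75%) each matched 1 member, Ogdh in both cases, the CRE in 3 overlapping windows and NRF1 in 2. The matches are shown in capitals with their neighbouring bases, the CRE starting at position -51 from one Ogdh gene start and NRF1, read on the other strand, at -15 from another. The NRF1 match depends on the letters searched: NRF1 and YY1 were first searched in forms 1 base longer, found in 0.971% and 0.852% of all windows and in no member's window, and the shorter forms were used after that result had been seen.
Ogdh CRE, chr11:6291535-6291564, plus strand: acccaattctgTGACGTCAcgtcacgccca
Ogdh NRF1, chr11:6292533-6292562, plus strand: taggtgttgtGCGCATGCGtaactcaactt
A match describes letters in a window and no binding.

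Input libraries held 17848273 to 27915940 counts and detected 20714 to 21734 genes each (a count of 1 or more), whereas IP libraries held 6198088 to 21229550 counts and detected 9566 to 17995 genes. The 4 IP libraries with the fewest genes were acute 3, acute 1, chronic 3 and healthy 5. The common biological coefficient of variation was 0.101 among input and 1.06 among IP libraries, so IP comparisons are far less precise. In acute EAE, 5 of 9 layer 5 markers were higher in IP than in input (Fezf2, Pou3f1, Nefh, Crym and the driver gene Colgalt2), and 5 of 10 oligodendrocyte markers and 4 of 12 astrocyte markers were lower, with 1 astrocyte marker, Aldoc, higher. Of all genes 8.56% were called higher and 10.1% lower. Not all other cell types were low in IP. Of 10 endothelial and mural markers 7 were positive, median log2 ratio 0.48, with 0 called higher and 1 lower. Among them Pecam1, Flt1, Tek and Pdgfrb were at 0 in 2 acute IP libraries each. In healthy cortex 9 of the 10 were positive, median 1.01, and 2 were called higher. Of 4 oligodendrocyte precursor markers 1 was positive in acute EAE and called higher (2.26), and the list median was -0.57. Glial markers were detected in IP: summed astrocyte markers ran from 942 to 1361 CPM in healthy, 1618 to 2528 in acute and 1562 to 3476 in chronic IP. Aldoc, singled out after its values were seen, made up 45.8% to 61.1% of the acute IP sum, and the median log2 ratio of the 12 astrocyte markers to input was -1.19 in acute EAE, with 2 of them positive. CPM here are counts scaled to the TMM-adjusted library size, on one scale for all 28 libraries.

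In chronic IP the levels of 6 members stood at 1.82 to 2.56 times those of healthy IP, which is what chose them. The group of 6 was led by Lrpprc, Pcx and Aldh2, and Ogdh and Pdha1 lay close to their healthy levels. Of all 13914 genes tested in IP, 0.180% were called as higher (25 genes) and 0.00719% as lower (1 gene), and nothing is read from the members' 6 against this share because the rule used it. Every chronic library exceeded every healthy one for 7 members, as for 2.87% of all genes. Leaving out 1 library at a time kept Pcx, Aldh2 and Ogdhl past the threshold in all 9 fits. Lrpprc dropped out without chronic 2 or healthy 3, Lonp2 without chronic 3 or healthy 1, 3 or 5, and Immt in every fit but the one without chronic 1. Without the 4 IP libraries with the fewest genes, 5 of the 6 passed, all but Immt. These refits reuse the libraries of the choice. They describe how the calls depended on the libraries included and are no separate support for the difference.

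Lrpprc (ENSMUSG00000024120, chr17:84705247-84790789, minus strand) encodes an RNA-binding protein that stabilises the mRNAs made from mitochondrial DNA. Its CPM were 111, 130.2, 83, 107 and 114 in healthy IP, 92.3, 157, 72.9, 128 and 122 in acute IP and 202, 380.3, 261 and 277 in chronic IP. The 4 chronic libraries lay above every healthy and every acute library, and acute and healthy IP overlapped. The log2 difference was 1.35 ± 0.23 (SE) between chronic and healthy, 0.06 ± 0.22 between acute and healthy, and 1.30 ± 0.23 between chronic and acute IP. Here and below, SE are those of edgeR's fit, with 5 healthy, 5 acute and 4 chronic libraries.

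Pcx (ENSMUSG00000024892, chr19:4510472-4621752, plus strand) encodes pyruvate carboxylase, the enzyme that refills the citric acid cycle with oxaloacetate. Its CPM were 48.6, 45.3, 58, 62.7 and 43.8 in healthy IP, 77.7, 107, 101, 84.9 and 95.5 in acute IP and 118, 153, 111 and 129.7 in chronic IP. The 3 groups did not overlap, with healthy lowest and chronic highest. The difference from healthy was 0.85 ± 0.21 in acute and 1.31 ± 0.22 in chronic IP on the log2 scale.

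Aldh2 (ENSMUSG00000029455, chr5:121566027-121593824, minus strand) encodes the mitochondrial aldehyde dehydrogenase that clears acetaldehyde and products of lipid peroxidation. Its CPM were 102, 127, 111, 146 and 142 in healthy IP, 216, 227, 203, 214 and 281 in acute IP and 255, 364, 222 and 264 in chronic IP. All 9 EAE libraries exceeded all 5 healthy ones, while acute and chronic overlapped. The difference from healthy was 0.85 ± 0.18 in acute and 1.13 ± 0.18 in chronic IP.

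Ogdhl (ENSMUSG00000021913, chr14:32322019-32347820, plus strand) encodes a brain-rich paralog of the first subunit of the oxoglutarate dehydrogenase complex, and Ogdh (ENSMUSG00000020456, chr11:6291633-6356642, plus strand) encodes that subunit itself. The Ogdhl CPM were 116, 125, 118, 154 and 130.4 in healthy IP, 171, 219, 185, 191 and 233 in acute IP and 256, 313, 297 and 239.6 in chronic IP, with no overlap among the groups. Ogdh CPM were 402, 453, 416, 441 and 439.9 in healthy IP, 383, 546, 574, 464 and 535 in acute IP and 431, 567, 399.7 and 572 in chronic IP. Every Ogdh group overlapped the others: its chronic difference was 0.19 ± 0.16, against 1.10 ± 0.17 for Ogdhl.

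Immt (ENSMUSG00000052337, chr6:71831331-71875257, plus strand) encodes mitofilin, the core of the MICOS complex that holds cristae junctions together. Its CPM were 179, 132, 159, 147 and 157 in healthy IP, 231, 239, 217, 194 and 224 in acute IP and 202, 363, 284 and 284 in chronic IP. Both EAE groups lay above the healthy group and overlapped each other. Its chronic difference of 0.87 ± 0.18 was the smallest of the 6 that passed the threshold.

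Lonp2 (ENSMUSG00000047866, chr8:86624043-86723873, plus strand) encodes the Lon protease of the peroxisome and Lonp1 (ENSMUSG00000041168, chr17:56614301-56626903, minus strand) the Lon protease of the mitochondrial matrix, which removes oxidised proteins. Lonp2 CPM were 88.2, 89.6, 92.2, 117 and 84.4 in healthy IP, 173, 98.4, 153, 135 and 136 in acute IP and 209, 209, 229.7 and 178 in chronic IP, and the chronic group stood above both others. Lonp1 CPM were 126, 126, 139.6, 164 and 144 in healthy IP, 143, 233, 152, 186 and 242 in acute IP and 222, 372, 206 and 184 in chronic IP. All 4 chronic Lonp1 libraries also exceeded the healthy ones, yet the difference of 0.81 ± 0.22 did not pass: its adjusted p, 0.12, missed the 0.05 that Immt, at 0.0457, passed, and 1 library, chronic 2, was far above the other 3. Lonp1 was called in 2 of 7 other settings, the DESeq2 Wald test and the fit of all 28 libraries. It was called in 0 of 9 fits that left out 1 library. For Lonp2 the chronic difference was 1.13 ± 0.20.

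Pdha1 (ENSMUSG00000031299, chrX:160122209-160138413, minus strand) encodes the catalytic alpha subunit of pyruvate dehydrogenase, the step that competes with Pcx for pyruvate. Its CPM were 360.4, 314, 262, 302 and 205 in healthy IP, 169.8, 326, 325, 347 and 355 in acute IP and 365, 248, 333 and 318 in chronic IP, with full overlap and a chronic difference of 0.13 ± 0.21. Its exons share 603 bases with Map3k15 on the opposite strand, and the counts are unstranded, so reads of the 2 genes cannot be told apart there.

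**Figure D1:**
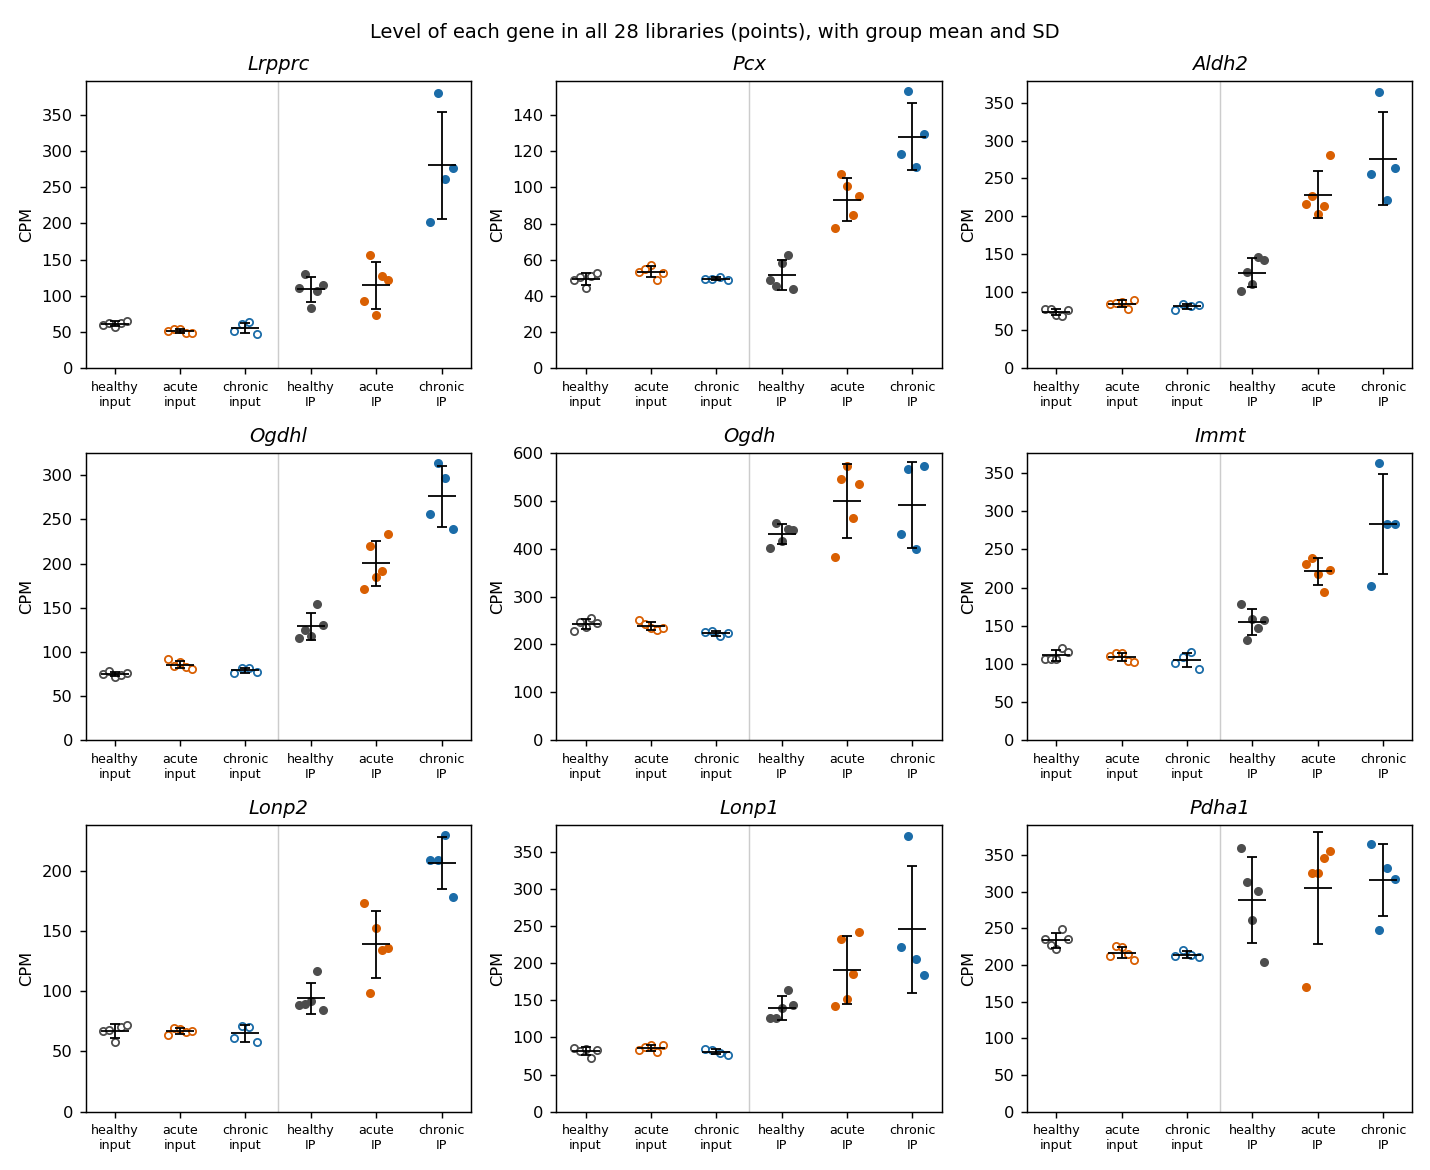
CPM of each gene in all 28 libraries, one panel per gene, with open points for input, filled points for IP and bars for the group mean and SD. Within each input group the points lie close together, whereas chronic IP stands above healthy IP in 7 panels and overlaps it for Ogdh and Pdha1.

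Markers of other cell types also differed in level between these libraries. The summed CPM of 12 astrocyte markers had a median of 1297 in healthy and 2472 in chronic IP, with no overlap. Of these markers 11 were positive and 1, Aldoc, was called. Aldoc made up 47.2% to 67.8% of the sum, and the other 11 markers summed to 360.4 to 688 CPM in healthy and 537 to 1685 in chronic IP, which overlap. Microglia markers had a median log2 difference of 1.29 (7 of 8 tested positive) and summed to 20.8 to 56.8 and 46.6 to 188 CPM. Many of them were near the floor: Tmem119 and Tyrobp were at 0 in 4 of the 5 healthy IP libraries. In chronic IP Tyrobp was at 0 in 3 of the 4 libraries, and P2ry12 and Aif1 in 2. Oligodendrocyte markers had a median of 0.77 (8 of 10 positive) and summed to 1077 to 1432 and 1285 to 3096 CPM, and no gene of either list was called. The 6 inhibitory neuron markers summed to 573 to 801 CPM in healthy and 992 to 1345 in chronic IP, and 1, Gad1, was called. Layer 5 markers summed to 1104 to 1418 and 1011 to 1546 CPM, and these ranges overlap. The astrocyte markers Gjb6, Sox9 and Aqp4 were at 0 in 2, 1 and 1 of the 4 chronic IP libraries. Of the 5 leukocyte markers, Cd3e, Cd52 and S100a8 had no count in all 4 of them and Ptprc and Plac8 none in 3, with a sum of at most 5.44 CPM, beside at most 4.88 in healthy IP. The part of other cell types in the members' values was not tested. In bulk RNA, a change in the number of cells of a type and a change in RNA per cell cannot be told apart.

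The comparison of acute with healthy IP shares the healthy libraries with the contrast that chose the members. Low values in those libraries helped to choose them, so nothing is read from the shares below. All 9 differences were positive, from 0.06 to 0.85 on the log2 scale with a median of 0.51, beside -0.04 over all genes tested. None was called, where 0.0575% of all genes were called higher, and 6 had an unadjusted p under 0.05, as did 4.39% of all genes in that direction. Every acute library exceeded every healthy one for Pcx, Aldh2, Ogdhl and Immt, an order that 1.33% of all genes showed. DESeq2's Wald test and voom with library weights each called 3 members, namely Pcx, Aldh2 and Ogdhl, beside 1.0% of all genes called higher by DESeq2 and 2.10% by voom. Leaving out acute 1 added a call for Aldh2.

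From acute to chronic IP, 8 of 9 differences were positive. No member passed edgeR's test, nor did any gene (0% called in either direction), and 4 members had an unadjusted p under 0.05, beside 2.55% of genes higher at that level. The chronic libraries are those whose high values chose the members, so nothing is read from these shares. Lrpprc had the highest difference, at 2.46 times its acute level. Lonp2 (0.57 ± 0.20), Ogdhl (0.47 ± 0.17) and Pcx (0.46 ± 0.22) also had no overlap between the phases, which 1.65% of all genes showed. DESeq2's Wald test called 2 members, Lrpprc and Ogdhl (2.08% of the genes it tested were higher), and voom 1, Lrpprc (0.208%).

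Input libraries took no part in the choice and were tested. In acute EAE the whole cortex held 1.15 times as much Aldh2 and 1.14 times as much Ogdhl RNA as healthy cortex, and 0.835 times as much Lrpprc and 0.927 times as much Pdha1. Of the 9 members 2 were higher (11.1% of all 16381 genes tested were called higher) and 2 were lower (8.59% lower). The median of the 9 differences was 0.01, beside -0.01 over all genes.

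Aldh2 CPM in input were 78.1, 77.6, 70.2, 68.6 and 76.1 in healthy and 84.1, 85.4, 87.4, 78.5 and 90.1 in acute cortex, every acute library being above every healthy one, as for 9.01% of all genes. The log2 change was 0.20 ± 0.05 (edgeR quasi-likelihood test, adjusted p = 0.00802). Ogdhl CPM were 74.5, 78.4, 71.8, 73.1 and 76.2 in healthy and 91.5, 84.2, 88.6, 82.3 and 80.9 in acute cortex, again without overlap, a change of 0.19 ± 0.04 (edgeR adjusted p = 0.0042). Lrpprc moved the other way. Its CPM were 60.1, 62.9, 56.8, 62.8 and 65.4 in healthy and 51.8, 53.7, 53.5, 49.2 and 48.7 in acute cortex, a change of -0.26 ± 0.07 (edgeR adjusted p = 0.00866) with all acute libraries below all healthy ones, as for 5.57% of all genes. Pdha1 CPM were 236, 228, 223, 249 and 235 and 213, 226, 224, 215 and 207, which overlap, and the change was -0.11 ± 0.04 (edgeR adjusted p = 0.0477). The calls of Aldh2, Ogdhl and Lrpprc held in all 10 fits that left out 1 library. That of Pdha1 held in 3 of the 10, with adjusted p-values from 0.0338 to 0.132, and was lost without acute 1, 3, 4 or 5 or healthy 1, 4 or 5.

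The remaining members did not pass in acute input. Pcx was at 53.3 ± 3.05 CPM against 49.4 ± 3.22 (SD, n = 5 each), Lonp1 at 86.2 ± 4.0 against 81.2 ± 5.36, and Lonp2 at 67.2 ± 2.33 against 66.9 ± 5.54. Immt stood at 109 ± 5.42 against 111 ± 6.71 and Ogdh at 239 ± 8.8 against 243 ± 10.3. With all 28 libraries in one fit, whose coefficient of variation was 0.710, no member was called in acute input. In the same libraries the astrocyte markers summed to 1457 to 1819 CPM in healthy and 2013 to 2816 CPM in acute input, without overlap, with 4 of 12 called as higher, while the sums without Aldoc, 925 to 1333 and 1281 to 1974 CPM, overlapped. Of 9 microglia markers 6 were called as higher and 1, P2ry12, as lower. All 4 leukocyte markers tested were called as higher, and the leukocyte list summed to 1.32 to 2.13 CPM in healthy and 11.5 to 22.9 in acute input. The part of these cell types in the change of Aldh2 and Ogdhl was not tested.

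In chronic input no member passed edgeR's test, where 2.33% of genes were called higher and 0.409% lower. Changes ran from -0.14 for Lrpprc to 0.14 for Aldh2. At an unadjusted p under 0.05, 1 member was higher (Aldh2) and 2 were lower (Ogdh and Pdha1), and no alternative test, DESeq2 and voom included, called any. Pdha1 CPM were 213, 221, 214 and 210.5, all below the healthy values (as for 2.21% of all genes), a change of -0.12 ± 0.04 (edgeR adjusted p = 0.123). For the 6 genes that chose the set, the chronic input levels stayed within 0.907 to 1.1 times healthy. Chronic against acute input called no member either (2.95% of genes higher, 4.74% lower), with 0 higher and 2 lower, Ogdhl and Ogdh, at an unadjusted p under 0.05 and none called by DESeq2 or voom. The Ogdhl value was -0.11 ± 0.05 and the Ogdh value -0.09 ± 0.04.

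**Figure D2:**
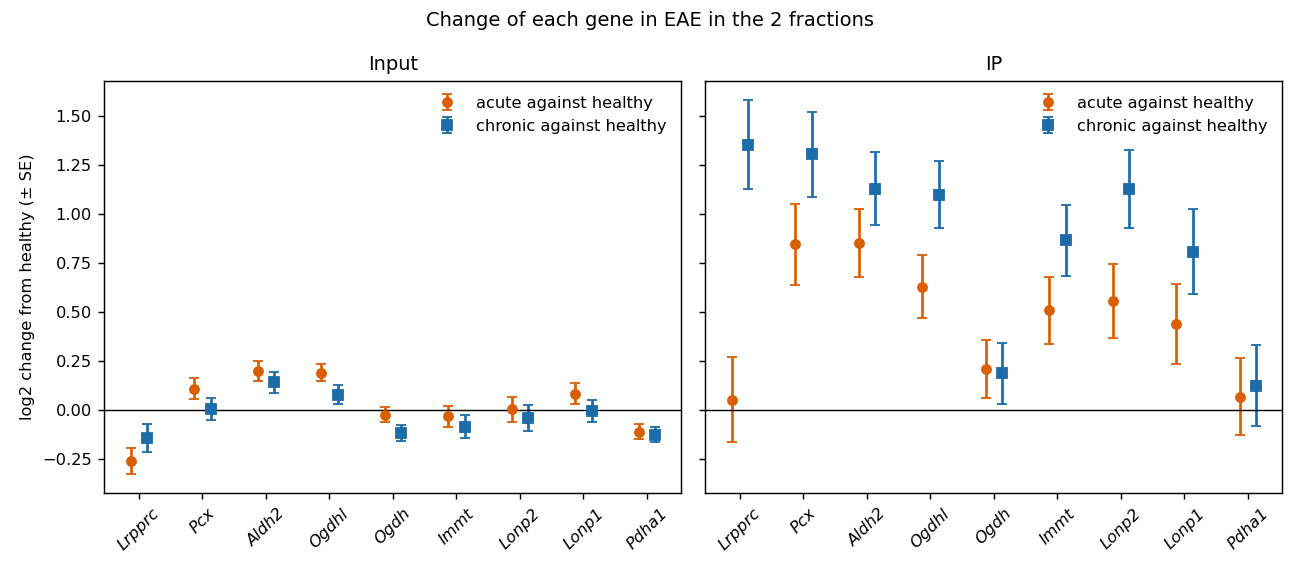
Log2 change from healthy with its SE for each gene, in input on the left and IP on the right, with circles for acute and squares for chronic EAE. In input the points lie between -0.26 and 0.20, and in IP between 0.06 and 1.35.

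In acute EAE all 9 members were higher in IP than in input. No acute library was compared in the contrast that chose the members. As fitted here, that contrast shared one spread over all IP libraries, the acute ones included, so the choice and these tests are not fully independent. The spread behind these tests was in turn estimated over all 28 libraries, and a fit of the acute libraries alone removes only this second sharing. With the acute libraries fitted alone (15331 genes, 11.3% called higher), all 9 were again called, with log2 ratios from 0.65 to 1.58 and edgeR adjusted p from 3.04e-06 to 0.0207. Of all 16580 genes, 8.56% were called higher, and 20.0% of the 3588 genes whose level in acute input lay within the range of the members. That range matches genes by level in input. Passing the choice also depended on level and spread in IP, for which no share here is matched. The shares in this paragraph are therefore not a like background for the members. The median log2 ratio of the members was 1.07, beside -0.36 over all genes and -0.07 in that level range. Aldh2 had the highest ratio, at 2.68 times input, and Pdha1 the lowest, at 1.4 times. The acute IP libraries exceeded all acute input libraries for 8 members, all but Pdha1, an order shown by 7.45% of genes.

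Among the enzymes of the pyruvate and oxoglutarate steps, the log2 ratio was 1.23 ± 0.11 for Ogdhl (edgeR adjusted p = 7.36e-10), 1.07 ± 0.10 for Ogdh (edgeR adjusted p = 5.37e-09) and 0.81 ± 0.13 for Pcx (edgeR adjusted p = 3.8e-05). For Ogdh this is 500.4 ± 76.9 CPM in IP against 239 ± 8.8 in input (SD, n = 5 each). The Pdha1 ratio of 0.49 ± 0.15 (edgeR adjusted p = 0.0181) was the least secure. It was called in only 1 of 5 fits that left out an IP and input library of one number, the fit without acute 1, and adjusted p ran from 0.000495 to 0.107.

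The aldehyde dehydrogenase Aldh2 had a ratio of 1.42 ± 0.13 (edgeR adjusted p = 8.04e-10). The RNA-binding factor Lrpprc had 1.15 ± 0.17 (edgeR adjusted p = 7.96e-06) and the cristae organiser Immt 1.03 ± 0.12 (edgeR adjusted p = 1.61e-07). For the proteases the ratio was 1.15 ± 0.16 for Lonp1 (edgeR adjusted p = 2.37e-06) and 1.05 ± 0.13 for Lonp2 (edgeR adjusted p = 6.46e-07). These 5 and Ogdhl, Ogdh and Pcx were called in every fit that left out a number and under all 7 other settings, including the one without the 4 IP libraries with the fewest genes. The layer 5 markers, which the pulldown aims at, summed to 1463 to 2019.8 CPM in acute IP and 635 to 718 in acute input, and the astrocyte markers to 1618 to 2528 and 2013 to 2816 CPM. The part of either in the members' ratios was not tested.

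The other 2 phases share IP libraries with the choice and are described. In healthy cortex 7 members were higher in IP (7.20% of all genes), and Pcx (0.07 ± 0.13) and Pdha1 (0.30 ± 0.15) were not called. In chronic cortex all 9 were higher (8.74% of all genes). The order changed between phases: Lrpprc had 0.83 in healthy and 2.33 in chronic EAE, Pcx 0.07 and 1.37, and Ogdh 0.83 and 1.14. Whether the ratio itself differed between phases was not tested, because the members were chosen on that change.

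**Figure D3:**
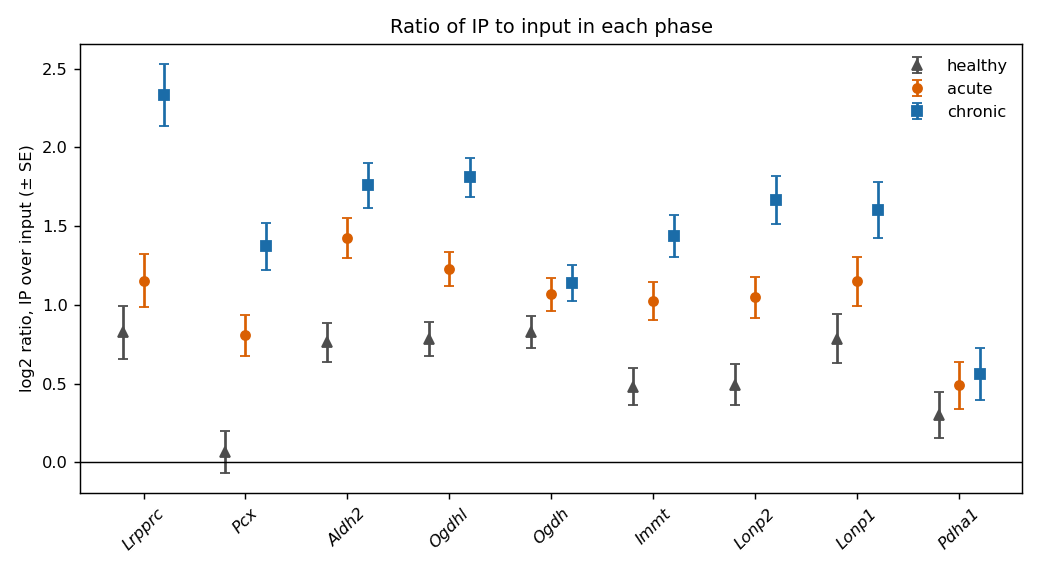
Log2 ratio of IP to input with its SE for each gene in healthy (triangles), acute (circles) and chronic (squares) cortex. The healthy ratio of Pcx lies near 0, and the chronic ratio of Lrpprc, 2.33, is the highest drawn.

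Setting paralogs side by side per kb of exon divides each level by the summed exon length of its gene. The transcripts present may have other lengths, so shares and orders per kb depend on that choice. Ogdhl supplied 32.8% ± 1.08 of the summed Ogdhl and Ogdh level in healthy input (SD, n = 5), 36.2% ± 0.838 in acute (n = 5) and 35.8% ± 1.2 in chronic input (n = 4). In IP its shares were 31.3%, 30.3%, 31%, 35.6% and 31.9% in the healthy libraries, 41.4%, 38.9%, 33.8%, 39.5% and 40.8% in the acute and 48.4%, 46.7%, 54% and 39.8% in the chronic ones. The chronic shares lay above all healthy ones. In 1 chronic library, number 3, which is one of the 4 IP libraries with the fewest genes, Ogdhl exceeded Ogdh per kb. Before division by length that library held 3263 Ogdhl and 4396 Ogdh counts.

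The protease pair did not separate by phase. Lonp2 supplied 27.2% ± 1.61 of the Lonp2 and Lonp1 level in healthy IP, 29.5% ± 8.66 in acute and 32.8% ± 6.25 in chronic IP, and the acute libraries alone spanned 19% to 40.3%. For the pair that competes for pyruvate, Pcx supplied 13.8% ± 2.72 of the Pcx and Pdha1 level in healthy, 21.8% ± 4.23 in acute and 26.5% ± 6.0 in chronic IP. In input the Pcx share was 15.6% ± 0.654 in healthy, 17.7% ± 0.683 in acute and 16.8% ± 0.354 in chronic cortex. In IP these shares use the libraries of the choice and are given without a test.

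**Figure D4:**
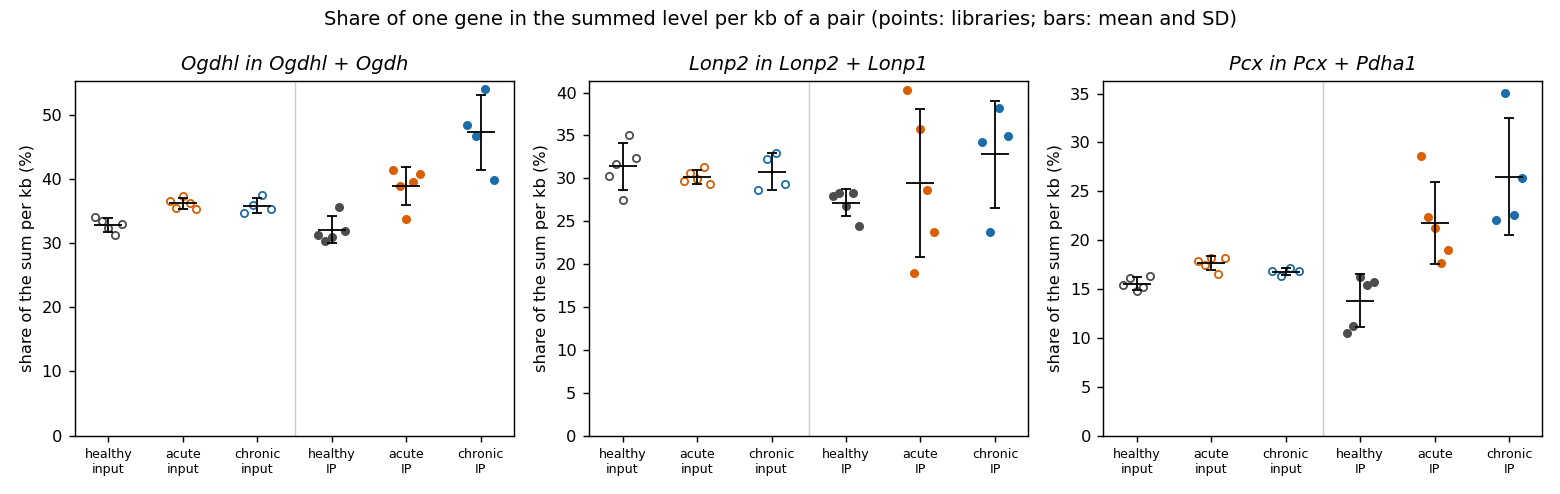
Share (%) of the first gene in the summed level per kb of each pair, by library (open points input, filled points IP) with the group mean and SD. The Ogdhl share is 30.3% to 35.6% in healthy IP and 39.8% to 54.0% in chronic IP.

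The wider pathways were read from lists of named genes with the members left out. In acute IP against acute input, 16 of 24 genes of the pyruvate dehydrogenase complex and the citric acid cycle were higher and none was lower, with a median log2 ratio of 0.68. Of all genes, 8.56% were called higher and 10.1% lower in that comparison, with a median of -0.36. Mdh2 (malate dehydrogenase, 1.20 ± 0.14) and Sdha (succinate dehydrogenase, 0.86 ± 0.09) were among those with the smallest adjusted p-values. Of 14 mitochondrial proteases and chaperones 6 were higher, median 0.50, led by the chaperone Hspa9 (1.36 ± 0.12), the protease subunit Clpx (1.68 ± 0.20) and the chaperonin Hspd1 (1.03 ± 0.13). Of 11 aldehyde dehydrogenases 4 were higher, median 0.44, among them Aldh1b1 (1.64 ± 0.27), Aldh7a1 (0.59 ± 0.12) and Aldh4a1 (1.24 ± 0.42), and 2 without acute 2 or acute 5. None of these 3 lists had a lower gene, except that 1 protease or chaperone was lower without acute 1.

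The other 4 lists of nuclear genes had medians from 0.00 to 0.21 in the same comparison. There 8.56% of all genes were called higher, and 20.0% of those within the members' range of input level. Among 31 peroxisomal genes 7 were higher, median 0.09, with the beta-oxidation enzymes Hsd17b4 (1.21 ± 0.20) and Acaa1a (1.08 ± 0.18) and the import factor Pex6 (1.09 ± 0.13) foremost. Immt's partners in the MICOS complex and its outer membrane bridge gave 1 of 11, Dnajc11 (0.93 ± 0.13), median 0.13. The biotin-dependent carboxylases, to which Pcx belongs, gave 1 of 8, Acaca (0.53 ± 0.15), median 0.21, a call absent without acute 2 or acute 5, while 2 were called without acute 3. None of 15 genes of mitochondrial RNA handling, the work Lrpprc takes part in, was called, median 0.00, and Tbrg4 had the smallest p (0.56 ± 0.20, edgeR adjusted p = 0.0548). Left-out libraries added 1 higher gene of RNA handling (without acute 1) and 1 lower peroxisomal gene (without acute 4 or 5).

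The RNAs encoded by mitochondrial DNA, which Lrpprc binds, were low in IP in every phase. In acute EAE 12 of 12 tested were lower in IP (10.1% of all genes were), with a median log2 ratio of -4.45. It was -4.40 with mt-Nd4l, which had 0 counts in all acute IP libraries, set to a floor of 3 counts per library. In healthy cortex 9 of 12 were lower (14.4% of all genes), median -2.53, and in chronic cortex 12 of 12 (20.0%), median -4.37. Low levels in IP were thus not particular to EAE, though the median ratio was lower in both EAE phases than in healthy cortex. In acute against healthy IP 0 of 8 tested genes were positive, median -1.62, and 1 was called lower (0.00719% of all genes were). The cause of these levels was not tested. mt-Co1 was at 60.5 ± 31.9 CPM in acute IP and 1491 ± 462 in acute input (SD, n = 5 each), mt-Cytb at 31.9 ± 6.79 and 679 ± 247.0, and mt-Nd1 at 24.7 ± 6.24 and 522 ± 165. The 13 genes summed to 290.0 to 678 CPM in healthy, 113 to 229.5 in acute and 148 to 292 in chronic IP. In input they summed to 2680.2 to 5199.9, 2667 to 5829.7 and 2886 to 7147 CPM.

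**Figure D5:**
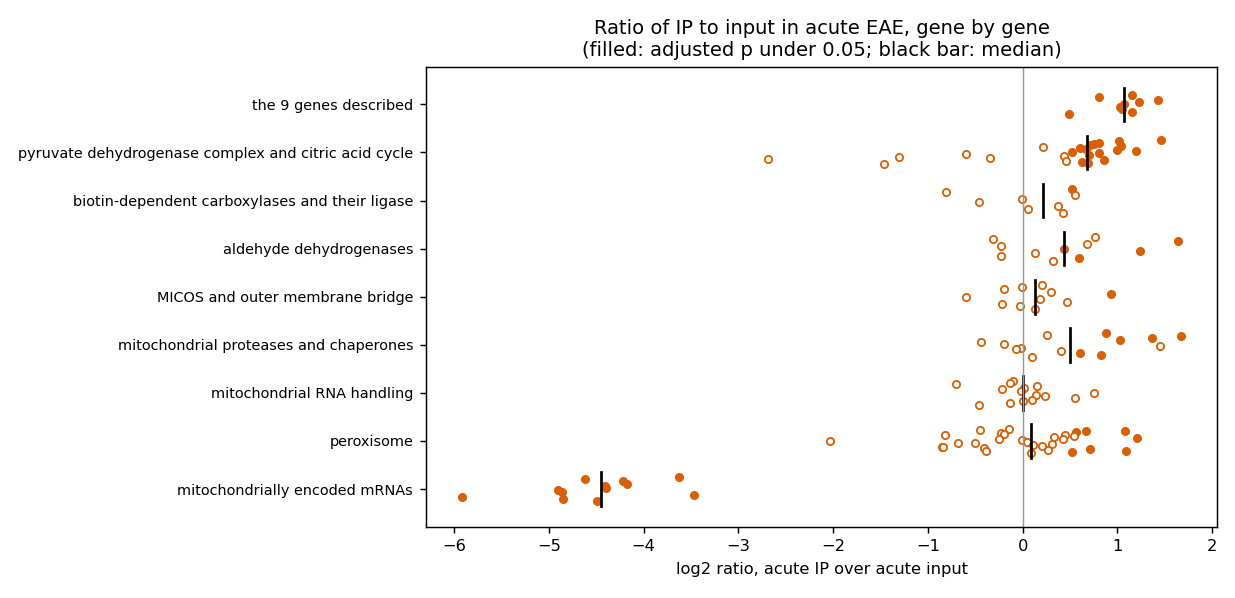
Log2 ratio of acute IP to acute input for the 9 genes and for every tested gene of 8 pathway lists, filled where the adjusted p was under 0.05, with a black bar at each median. The 9 genes have a median of 1.07, the pyruvate dehydrogenase and citric acid cycle list 0.68, and the mitochondrially encoded mRNAs lie at the far left.

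In acute input the same lists split, where 11.1% of all genes tested were called higher and 8.59% lower. Nothing is read from list counts near these shares. Of the pyruvate dehydrogenase and citric acid cycle list 5 of 24 were higher and 1 lower: the kinases Pdk4 (0.76 ± 0.14) and Pdk2 (0.25 ± 0.04), which inhibit pyruvate dehydrogenase, rose, as did Idh2 (0.51 ± 0.07). The higher count was 3 without acute 5, healthy 2 or healthy 5, and the lower one was 0 without healthy 4 and 2 without healthy 3. Aldh1l1 (0.41 ± 0.10) and Aldh7a1 (0.24 ± 0.05) rose among 11 aldehyde dehydrogenases. In the MICOS list Samm50 (0.31 ± 0.05) and Micos13 (0.18 ± 0.05) rose and Opa1 (-0.23 ± 0.05) fell, 3 of 11 in all, with 1 higher without healthy 2 and 2 lower without acute 1 or healthy 4. Among 14 proteases and chaperones Spg7 (0.29 ± 0.07) and Clpp (0.18 ± 0.05) rose and 2 fell, Hspa9 (-0.17 ± 0.04) among them, 1 without acute 4 or 5 or healthy 1 or 5. Of 31 peroxisomal genes 3 rose, Pex6 (0.22 ± 0.05), Pex10 (0.24 ± 0.07) and Pex11a (0.31 ± 0.10). Pcca (0.22 ± 0.07), a biotin-dependent carboxylase subunit, rose as 1 of 8 and was not called without acute 1 or 2 or healthy 2 or 3. No gene of mitochondrial RNA handling (0 of 15, smallest p for Mtpap) and no mitochondrially encoded mRNA (0 of 12, smallest p for mt-Nd3) was called.

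Chronic input called 1 gene of the pyruvate dehydrogenase and citric acid cycle list, Idh2 (0.34 ± 0.07), lost without chronic 2, and mt-Nd3 (1.35 ± 0.33) among the mitochondrially encoded mRNAs, lost without chronic 3 or 4 or healthy 1, 2, 4 or 5. Of all genes 2.33% were called higher and 0.409% lower there. The other 6 lists had none, or 1 protease or chaperone higher without chronic 2 and 1 peroxisomal gene higher without healthy 1. From acute to chronic input 4.74% of all genes were called lower. Of the first list 5 of 24 genes fell, Pdk2 (-0.22 ± 0.04), Sdhb (-0.21 ± 0.04) and Mdh2 (-0.18 ± 0.04) first, and 3 without chronic 3. Micos13 (-0.25 ± 0.05), Samm50 (-0.23 ± 0.05) and the peroxisomal Pex11a (-0.42 ± 0.10) fell too. The peroxisomal count was 0 without chronic 1 and 2 without chronic 3 or acute 5, and 1 aldehyde dehydrogenase was lower without chronic 2. In chronic against healthy IP 1 of 24 genes of the first list was called as higher and none of the other 7 lists (0.180% of all genes were). The list medians were 0.23 for the pyruvate dehydrogenase and citric acid cycle list, 0.67 for the carboxylases, 0.47 for the proteases and chaperones, 0.37 for the aldehyde dehydrogenases, 0.16 for the peroxisome, 0.07 for RNA handling, -0.42 for MICOS (4 of 11 positive) and -1.20 for the mitochondrially encoded mRNAs (0 of 8 tested positive), beside -0.03 over all genes.

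Per kb of exon, the order of the members' levels differed between fractions. In healthy input Pdha1 (62.7 ± 2.7 CPM per kb) stood first and Ogdh (44.5 ± 1.9) second, without overlap, followed by Lonp1 (27.4 ± 1.81), Immt (22.3 ± 1.35), Ogdhl (21.7 ± 0.746), Aldh2 (15.8 ± 0.941), Lonp2 (12.5 ± 1.04), Pcx (11.6 ± 0.753) and Lrpprc (7.24 ± 0.386). Of these neighbours, Lonp1 and Immt, Immt and Ogdhl, and Lonp2 and Pcx overlapped. In healthy IP Ogdh (78.9 ± 3.81) came first and Pdha1 (77.3 ± 15.7) second, and Pcx (12.1 ± 1.94) last. There the libraries of all neighbours overlapped except Lonp2 (17.6 ± 2.4) above Lrpprc (12.8 ± 2.0). In chronic IP all neighbours overlapped, and Lrpprc, at 32.9 ± 8.7 CPM per kb, lay above Pcx, at 30 ± 4.33, in mean but within the spread.

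The genes whose log2 CPM followed each member most closely over the 14 libraries of a fraction are given as a description, since these libraries share phases and depth. Over input, the nearest to Lrpprc was the chaperonin gene Hspd1 (Pearson r = 0.942), followed by Cdv3 (0.940). Ogdhl was followed by Jak2 (0.934) and Stat3 (0.920), both of cytokine signalling, and Aldh2 by Ccnl2 (0.944) and Gstm1 (0.886). For Pcx these were Cactin (0.830) and Eif4h (0.827), for Ogdh Klc1 (0.854) and Dtl (0.818), and for Immt Kif1bp (0.900) and Sf3b2 (0.871). Lonp2 had Ufsp2 (0.861) and Pip5k1a (0.847), Lonp1 had Sharpin (0.877) and Ift46 (0.841), and Pdha1 had Cdk11b (0.894) and Arntl (0.875).

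Over IP, 2 members were each other's near neighbours: Pcx and Ogdhl (r = 0.942), with Eif3c closest to Pcx (0.950) and Ptk2b next to Ogdhl (0.937). Aldh2 ran with the neurofilament gene Nefm (0.967) and with Mroh1 (0.944). Immt ran with Tkt (0.942) and the complex I subunit Ndufs1 (0.913), and Lrpprc with the chaperone Hsph1 (0.914) and Anapc1 (0.892). Ogdh had Tecpr1 (0.930) and Ncstn (0.877), Lonp2 had Cebpz (0.899) and Kif1bp (0.875), and Pdha1 had Tmem151b (0.940) and Prepl (0.937). Lonp1 had the chaperone Hsp90ab1 (0.873) and Ogdhl (0.871). Among the 36 pairs of members the median r was 0.256 over input (from -0.609 to 0.754) and 0.647 over IP (from -0.016 to 0.942). The set was built around genes chosen as higher in chronic than in healthy IP, and the libraries of that choice are correlated here. Members can follow each other over IP for that reason alone, so nothing is read from their likeness to each other there.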

How the data were processed

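Poly A enriched RNA from IP and input cortex was sequenced in 28 libraries. The authors deposited raw counts per gene, made with featureCounts 1.5.1 on exons by gene, with read pairs and without strand, against Ensembl release 79 of GRCm38, per the file headers. The header names 36 alignment files, while the counts hold 28 library columns, all of which were used. STAR 2.4, GRCm38 (mm10) and DESeq2 are named in the submitters' processing notes. Of 43629 genes, 42462 (97.3%) matched a symbol. Unstranded counts add overlapping genes together.

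The tests were run with edgeR 4.0.16 (R 4.3.3): filterByExpr (minimum count 10, minimum total 15), TMM scaling, robust quasi-likelihood F tests and Benjamini-Hochberg adjustment over all genes, with calls at an adjusted p under 0.05. Input libraries (16381 genes), IP libraries (13914) and, for IP against input, all 28 (16580) were fitted apart. SE is the absolute log2 change divided by the square root of F. The largest chi-square per degree of freedom between 2 libraries of a group was 177 and the smallest 4.05 (52 pairs, genes with at least 10 counts in the pair), so no pair was treated as copies of one library.

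The members and the lists were chosen with earlier results of these data known. Of each list, up to 3 called genes with the smallest adjusted p are named, or the 1 with the smallest p; one gene that this rule names is not reported here. For likeness, the 2 genes with the highest Pearson r of log2 (CPM + 0.5) are named among genes with a mean of at least 10 CPM, passing over provisional symbols. Alternatives were DESeq2 1.42.0 size factors and its Wald test, voom in limma 3.58.1, no low-count filter, a replicate block, another set of libraries in the fit, each replicate left out, and 4 IP libraries left out. The labels do not say whether replicate numbers pair the libraries, and the correlations did not meet the rule for pairs (over 0.1 in every pair), so the numbers were not used as pairs. On simulated counts, the acute input fit (16176 genes) recovered 81% of 2-fold and 96% of 4-fold changes with 12 false among 189 calls, the fit of acute IP against input (16353 genes) 25.5% and 39.8% with 0 false among 65, and that of chronic against healthy IP (12996 genes) 5.15% and 28.2% with 3 false among 37. Figures used Python 3.11.15 and matplotlib 3.10.9. Promoter sequences come from RefSeq (GRCm38.p6). Proteins were not used here.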

Additional observations from a re-analysis of the deposited data

Results flagged for a closer look

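Of 54 groups of 4 or 5 libraries (9 genes in 6 groups), 2 held a library far from the others, and chance gives about 1 in 20. Lonp2 in healthy IP replicate 4 was at 116.6 CPM, and the next highest healthy library was at 92.2 CPM. Pdha1 in acute IP replicate 1, a library with few genes detected, was at 169.8 CPM, and the next lowest acute library was at 325 CPM. Without acute 1, the Pdha1 ratio of acute IP to acute input was 0.63 on the log2 scale, beside 0.49 with it.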

How the results depend on the processing

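Counts of called members moved by over 1.5 times as follows. In acute input the count fell from 4 to 0 with all 28 libraries in one fit, whose spread is 0.710 in place of 0.101. In acute against healthy IP it went from 0 to 3 with the DESeq2 Wald test, 3 with voom and 5 with all 28 libraries (7.64% of all genes higher), and in chronic against acute IP from 0 to 2, 1 and 4 (2.26%). The cause was not tested. Leaving out 1 replicate gave 3 to 4 in acute input (10 fits), 8 to 9 in acute IP against acute input, 3 to 6 in chronic against healthy IP (3 without healthy 3, 4 without healthy 1 or 5 or chronic 2 or 3), 0 to 1 in acute against healthy IP (1 without acute 1), 0 to 0 in chronic against acute IP and in both other input comparisons, 7 to 7 in healthy and 8 to 9 in chronic IP against input. Of 1170 log2 values of members under alternatives, 30 changed sign, all of them with a size of at most 0.13 as reported and none of them called.

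With the replicate block, 3 members were called in acute input, 8 in acute IP against acute input and 4 in chronic against healthy IP. The calls lost with it were Pdha1 in the first and in the second, and Immt and Lonp2 in the third. The shares of all genes called with the block, or with a replicate left out, are not reported here. Whether a loss of calls is particular to the members cannot be told from these counts. The labels do not say whether the numbers pair the libraries, and same-numbered deviations correlated at -0.096 to 0.110 among input, -0.111 to 0.186 among IP and -0.009 to 0.143 between IP and input. A library correlated best with its own number in 3 of 26 comparisons among input, 12 of 26 among IP and 9 of 14 between IP and input, where numbers without meaning would give 5.6, 5.6 and 3.0. Between IP and input this may be a hint of pairing, but the excess was also there among IP libraries of different phases. It is therefore not particular to pairs. Comparisons across phases were made from both sides and libraries recur, so the expected numbers are no test. In the submitters' sample codes, each IP library shares its number with the input library of the same phase and replicate. No label says what that number stands for. Libraries with the same replicate number in different phases carry different codes, so the codes give no ground for a block across phases. Of simulated 2-fold changes 81% were recovered in acute input, 25.5% in acute IP against input and 5.15% in chronic against healthy IP.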
